A study of Mus musculus with 2 samples.

Results

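The genes of the vacuolar ATPase and of the lysosome membrane were followed through the cells of the mouse aortic arch. All genes of the count matrices whose symbols start with Atp6v0, Atp6v1, Atp6ap, Lamp or Mcoln, the last pair followed by a digit, were taken, which gave 32 of 31053 genes. Of these, 25 encode subunits or accessory proteins of the vacuolar ATPase (V-ATPase), and 7 encode lysosome-associated membrane proteins (LAMP) or mucolipin channels. The arches came from Apoe-/- male mice on the C57BL/6 background, aged 16 weeks, so both groups lacked apolipoprotein E. The ND group received chow and the HFD group a feed rich in fat and cholesterol that also held sodium cholate. Cells of 2 aortas were pooled into 1 library for each diet and profiled on a droplet platform with unique molecular identifiers (UMIs). Diet and library therefore cannot be told apart, no difference was tested, and the intervals given below cover counting error only.

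The V-ATPase is a rotary proton pump. Its cytosolic V1 sector hydrolyses ATP, and its membrane-bound V0 sector carries protons into the lumen of lysosomes and other compartments. The low pH that results is needed by the hydrolases that break down engulfed material, and macrophages that take up lipoproteins in the arterial wall deliver cholesteryl esters to these lysosomes. LAMP proteins line the inner face of the lysosome membrane, mucolipins are cation channels in it, and transcription factors of the MiT/TFE family are known to act on many such genes through the CACGTG-type motif.

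After filtering, 5416 ND and 2739 HFD cells were kept, with medians of 3732.5 and 5336 UMIs. The labels state medians of reads per cell in the reverse order, with ND above HFD, and the reason is not known from the sources used here. Cell types were gated by the number of distinct markers with a UMI, and a macrophage had to show at least 4 of 7, among them C1qa, C1qb, C1qc and Csf1r. This gave 330 macrophages in ND and 447 in HFD. The macrophage markers summed to 14995 UMIs per 1000000 UMIs of the gated cells (CPM) in ND macrophages and 12485 CPM in HFD macrophages. In endothelial cells of the same libraries they summed to 83.3 and 92.9 CPM. Macrophages with at least 2 UMIs of Lyve1, Folr2, Cbr2 and F13a1 together met the resident gate, and those with at least 2 of Trem2, Gpnmb and Spp1 met the foam gate.

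In ND, 229 macrophages met the resident gate alone, 16 the foam gate alone, 31 both and 54 neither. In HFD, the same sets held 175, 151, 81 and 40 cells. The foam gate alone thus held 4.85% of ND macrophages (exact binomial 95% interval 2.80 to 7.75) and 33.8% of HFD macrophages (29.4 to 38.4). After each cell was thinned to 1000 UMIs and the gates were applied again, the shares were 2.43% of 329 cells and 27.5% of 447 cells, with 1 shallower ND cell left out. Foam-gate cells of HFD held a median of 8485 UMIs and 16.0% mitochondrial UMIs, and resident-gate cells of HFD 5212 UMIs and 23.1%. The part of this gap in depth was not tested beyond the thinned values given with the results. The HFD library also held more haemoglobin RNA in endothelial cells, fibroblasts and macrophages, with erythroid markers at 11434 CPM in endothelial cells against 1543 CPM in ND.

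Across the gated classes of HFD, summed V-ATPase UMIs were highest in foam-gate macrophages, at 5160 CPM (Poisson 95% interval 5043 to 5279), followed by macrophages of both gates at 3220 CPM. In ND the foam gate, with 16 cells, held 3554 CPM (3179 to 3961) and both gates 3449 CPM, with overlapping intervals. Each of these ND values leaned on 1 deep cell, and without it they were 2624 CPM (2258 to 3031) and 2831 CPM (2610 to 3064), a choice made after seeing the data. Resident-gate macrophages held 2287 CPM in HFD and 2401 CPM in ND, and monocytes, the blood precursors of macrophages, held 2187 and 2037 CPM. Dendritic cells held 1756 and 1692 CPM. Endothelial cells and fibroblasts lay lower and close to each other, at 1264 CPM each in HFD and at 1317 and 1442 CPM in ND. T cells were the lowest white cells, at 847 CPM in HFD and 971 CPM in ND.

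The summed LAMP and mucolipin level followed another order. It was 1848 CPM in the foam gate of HFD but 1282 CPM in that of ND, below the resident gate of ND at 1547 CPM. Fibroblasts, with 907 CPM in HFD and 866 CPM in ND, held more than endothelial cells, with 436 and 434 CPM. Dendritic cells, whose V-ATPase level exceeded that of fibroblasts, held only 280.2 CPM in HFD and 181 CPM in ND of the LAMP and mucolipin genes.

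**Figure D1:**
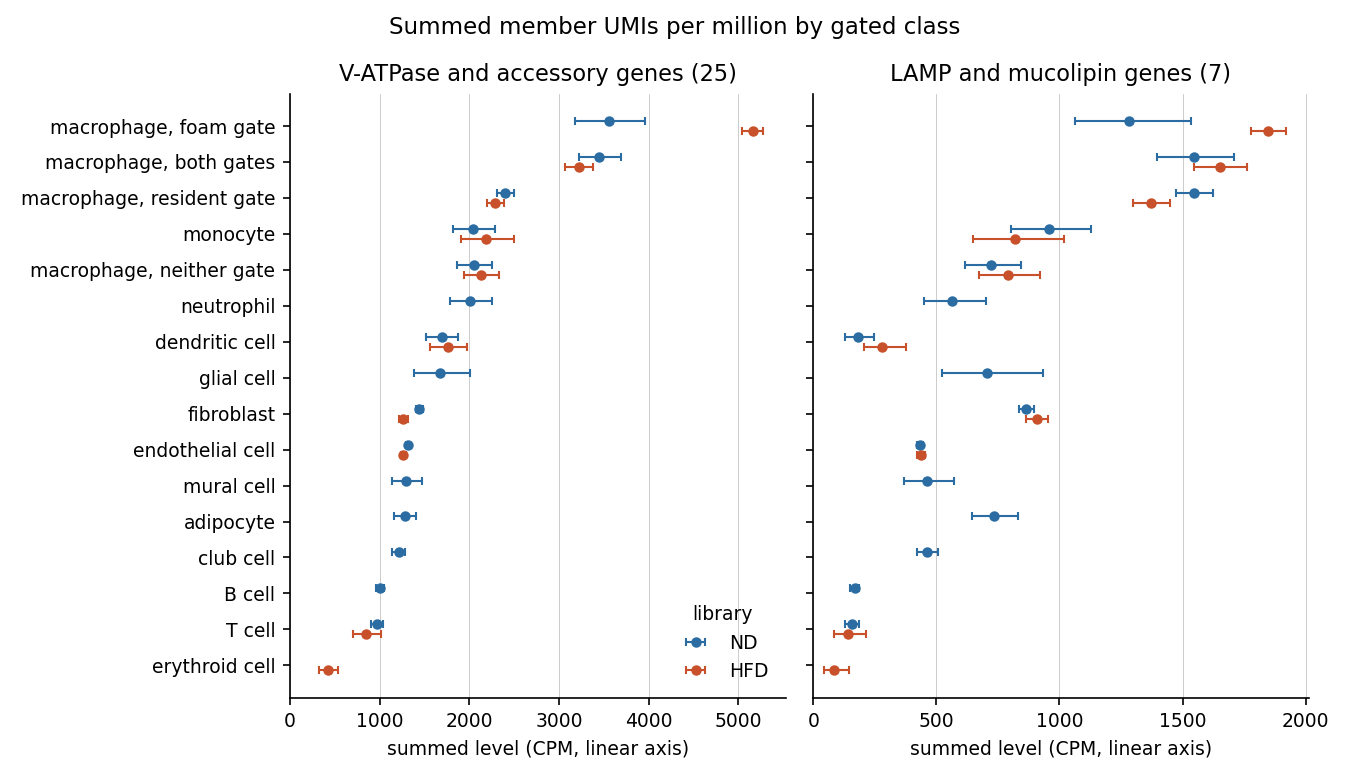
Summed level of the 25 V-ATPase genes (left) and of the 7 LAMP and mucolipin genes (right) in CPM on a linear axis, for each gated class with at least 20 cells and for the ND foam gate with 16 cells; points are libraries (ND blue, HFD orange) and bars exact Poisson 95% intervals. Foam-gate macrophages stand highest for the V-ATPase in HFD, at 5160 CPM, while the ND point at 3554 CPM is 2624 CPM without 1 deep cell, and fibroblasts exceed endothelial cells for the LAMP and mucolipin genes.

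Macrophages were set against endothelial cells, the most numerous class, within each library. In ND, 15 of 21 members with at least 20 UMIs over both sides were higher in macrophages by at least 1.5 times, and 2 were lower. Among all 11310 genes tested, 21.1% were higher and 39.1% lower by that fold. In HFD, 21 of 22 members were higher and 1 was lower, against 24.3% and 38.7% of 10883 genes. The summed V-ATPase level was 2579 against 1317 CPM in ND, a log2 ratio of 0.97 (0.92 to 1.02), and 3755 against 1264 CPM in HFD, a log2 ratio of 1.57 (1.53 to 1.61). The median log2 ratio of all genes was -0.32 in ND and -0.26 in HFD.

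Atp6v0a2 was the member that ran the other way in both libraries. It encodes an a subunit of V0 known for its place in the Golgi and in endosomes, and it held 24.1 CPM in ND macrophages against 44.3 CPM in ND endothelial cells. In HFD the levels were 27.3 and 51.8 CPM, with a log2 ratio of -0.92 (-1.28 to -0.57). Atp6v0c, the main ring subunit, was 11.8 against 2.27 CPM in ND and 9.54 against 2.18 CPM in HFD, but it has pseudogenes of its name in the annotation and its counts are uncertain. Atp6v1g2 was past the fold in opposite directions in the libraries, with 3 macrophage UMIs in ND and 15 in HFD and intervals that held 0.

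The 2 diets were then compared within macrophages. All 9 members past the 1.5-fold limit, of 22 with enough UMIs, were higher in HFD, and none was lower. Of 9262 genes tested, 11.9% were higher and 19% lower by that fold, with a median log2 ratio of -0.10. Summed V-ATPase UMIs numbered 4166 of 1615500 in ND and 11808 in HFD, or 2579 against 3755 CPM, a log2 ratio of 0.54 (0.49 to 0.59). The 17 V-ATPase members tested had a median log2 ratio of 0.50, and 7 of them were past the fold. The summed LAMP and mucolipin level was 1419 CPM in ND and 1600 CPM in HFD, a log2 ratio of 0.17 (0.10 to 0.24).

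In the V1 sector, subunits A and B form the ring that hydrolyses ATP. Atp6v1a held 176 CPM in ND and 243 CPM in HFD macrophages, a log2 ratio of 0.47 (0.27 to 0.67), short of the fold. Atp6v1b2 held 134 and 224 CPM, a log2 ratio of 0.74 (0.52 to 0.97). Both values of HFD lay above those of ND by more than the counting error. The subunits D and F form the rotor, with 66.9 and 94.4 CPM for Atp6v1d and with 209 and 346 CPM for Atp6v1f. Of the stalk subunits, Atp6v1c1 had the largest ratio, from 58.8 CPM in ND to 113 CPM in HFD, or 0.94 on the log2 scale (0.61 to 1.28). Atp6v1g1 was 252 and 416 CPM, and Atp6v1e1 170 and 241 CPM. Atp6v1h, a regulatory subunit, was level at 66.2 and 61.4 CPM, with a log2 ratio of -0.11 (-0.46 to 0.24).

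In the V0 sector, the d subunit joins the proton-carrying ring to the rotor. Atp6v0d2 (ENSMUSG00000028238, chr4:19876841-19922605, minus strand, GRCm38), a d subunit known from osteoclasts and kidney, was 30.3 CPM in ND and 202 CPM in HFD, a log2 ratio of 2.74 (2.31 to 3.19). The broadly expressed d subunit, Atp6v0d1, was 143 and 225 CPM, a log2 ratio of 0.65 (0.43 to 0.87). Thus both d genes were higher in HFD, the first by a wider margin. Atp6v0e, a small subunit of V0, was 267 and 445 CPM, and Atp6v0b, a ring subunit, was 475 and 597 CPM. Atp6v0a1, which lines the proton path, was 131 and 135 CPM, a log2 ratio of 0.05 (-0.19 to 0.30).

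The accessory subunits parted from each other. Atp6ap1, needed for assembly of the pump, was 150 CPM in ND and 204 CPM in HFD, a log2 ratio of 0.44 (0.23 to 0.66). Atp6ap2, also known as the prorenin receptor, was 211 and 165 CPM, a log2 ratio of -0.35 (-0.56 to -0.15). Lamp1 and Lamp2, the major glycoproteins of the lysosome membrane, parted likewise. Lamp1 was 891 CPM in ND and 1141 CPM in HFD, a log2 ratio of 0.36 (0.27 to 0.45), whereas Lamp2 was 499 and 397 CPM, a log2 ratio of -0.33 (-0.46 to -0.20).

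The Atp6v0d2 reads of ND macrophages came from few cells. Of its 49 UMIs, 26 lay in 1 cell of 31501 UMIs and 14 in 1 cell of 21879 UMIs, and these were the only ND macrophages with a Gpnmb UMI. A UMI of Atp6v0d2 was found in 11 of 330 ND macrophages and in 103 of 447 HFD macrophages (23.0%). In endothelial cells, which served as the background class, the share was 0.220% in ND and 0.281% in HFD, at median depths of 3546 and 5275 UMIs against 4391 and 5890 in macrophages. When both deep ND cells were left out, a choice made after seeing the data, the ND level of Atp6v0d2 was 5.76 CPM and its log2 ratio 5.13 (4.20 to 6.27). The log2 ratio of the summed V-ATPase was then 0.63 (0.58 to 0.69).

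The 2 diets differed less within the resident gate. There, 1 of 19 members, Mcoln2, was higher in HFD by the fold and none was lower, against 7.31% and 17.6% of 7278 genes. The summed V-ATPase level was 2401 CPM in ND and 2287 CPM in HFD, a log2 ratio of -0.07 (-0.15 to 0.01), and none of the 15 V-ATPase members tested was past the fold. Lamp1 was 948 CPM in ND and 843 CPM in HFD, and Lamp2 was 567 and 475 CPM, with both intervals below 0. Atp6v1e1, with 157 and 118 CPM, had the lowest log2 ratio of the gate, -0.41 (-0.77 to -0.06). In macrophages of neither gate the summed V-ATPase log2 ratio was 0.05 (-0.14 to 0.25). In the foam gate it was 0.54 (0.38 to 0.70), with only 16 ND cells, and 0.98 (0.76 to 1.19) without the deepest of them. The foam-gate cells of the 2 libraries differed in markers, with Gpnmb at 652 CPM in ND and 3893 CPM in HFD. The genes of inflammatory macrophages Cxcl1, Cxcl2, Ccl3 and Ccl4 summed to 6533 CPM in ND macrophages and 3519 CPM in HFD macrophages, and their part in these differences was not tested.

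**Figure D2:**
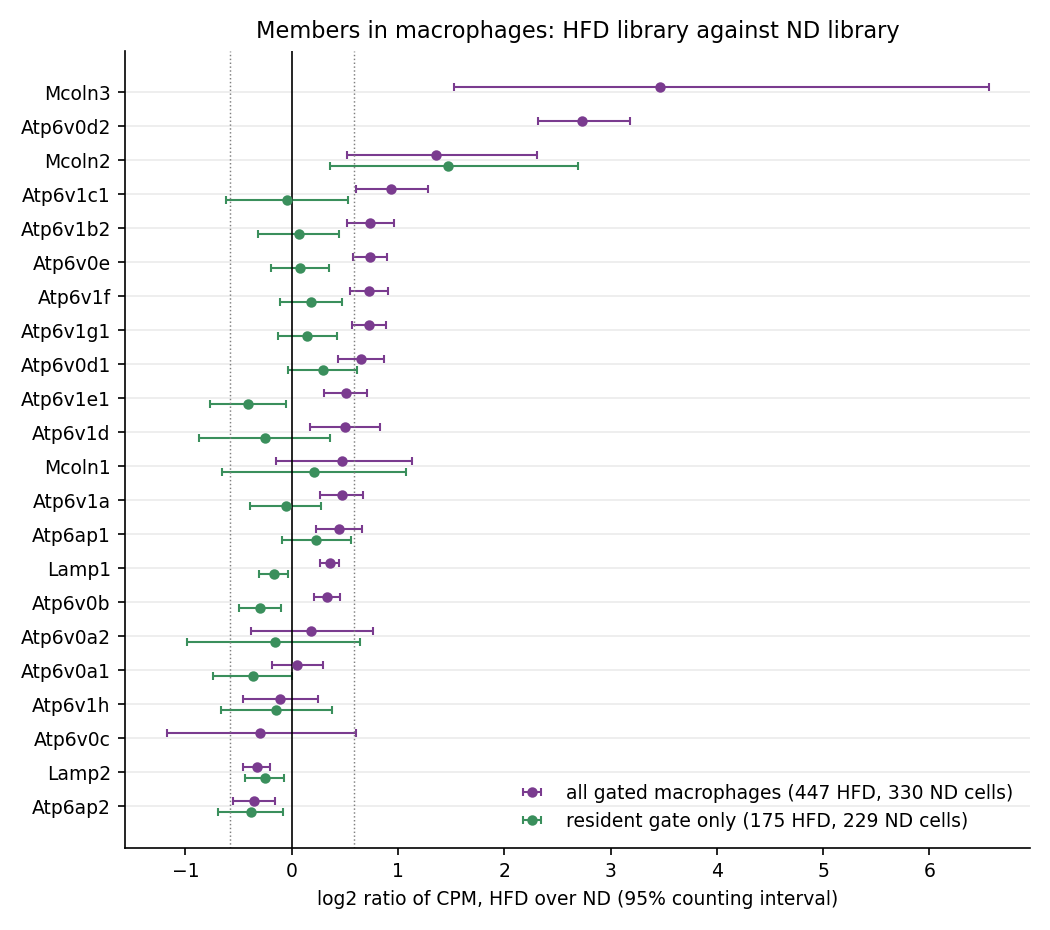
Log2 ratio of CPM of HFD over ND for the 22 members with at least 20 UMIs, in all gated macrophages (purple) and in the resident gate alone (green, 19 members); bars are 95% counting intervals and dotted lines mark 1.5 times. Over all macrophages 9 members lie beyond the right line, and in the resident gate only Mcoln2 does.

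The foam gate was compared with the resident gate inside each library, so that diet and library were shared by both sides. In HFD, 13 of 21 members were higher in the foam gate by at least 1.5 times and 1 was lower, against 20.5% and 23.4% of 7449 genes. Of the 17 V-ATPase members tested, 12 were higher and none was lower, with a median log2 ratio of 1.17 where that of all genes was -0.04. Summed V-ATPase UMIs gave 5160 against 2287 CPM, a log2 ratio of 1.17 (1.11 to 1.24). In cells thinned to 1000 UMIs the log2 ratio was 0.94, and 9 members were higher, with the share of all genes not counted on that scale. On that scale, the same foam-gate cells held a mean of 4.55 V-ATPase UMIs each and the resident-gate cells 2.38.

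Every V1 subunit with at least 200 UMIs in macrophages except Atp6v1h was past the fold between the gates of HFD. Atp6v1c1 was 182 CPM in the foam gate and 52.6 CPM in the resident gate, a log2 ratio of 1.79 (1.35 to 2.26). The rotor subunit Atp6v1d was 138 and 43.1 CPM, and Atp6v1f was 471 and 210.3 CPM. The ring subunits Atp6v1a and Atp6v1b2 were 348 against 150.3 CPM and 319 against 122 CPM. The stalk subunits Atp6v1e1 and Atp6v1g1 were 333 against 118 CPM and 603 against 236 CPM. Atp6v1h was 71.4 and 61.0 CPM, a log2 ratio of 0.23 (-0.25 to 0.72).

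Among the V0 subunits of HFD, the gates differed most in Atp6v0d2. It had 568 UMIs in the foam gate and 6 in the resident gate, or 394 against 6.31 CPM, a log2 ratio of 5.96 (4.83 to 7.42). No cell held more than 34 of these UMIs, and 88 of 151 foam-gate cells held at least 1. Its partner gene Atp6v0d1 was 279 and 179 CPM, a log2 ratio of 0.64 (0.38 to 0.91). Atp6v0e was 631 and 234 CPM, and Atp6v0b was 788 and 388 CPM, with log2 ratios of 1.43 and 1.02. Atp6v0a1, at 143 and 112 CPM, and Atp6v0a2, at 29.1 and 26.3 CPM, were not past the fold. The accessory genes were not past it either, with 243 and 172 CPM for Atp6ap1 and 175 and 164 CPM for Atp6ap2.

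Lamp1 was higher in the foam gate of HFD and Lamp2 lower. Lamp1 was 1431 against 843 CPM, a log2 ratio of 0.76 (0.64 to 0.88), and 0.52 in thinned cells. Lamp2 was 354 against 475 CPM, a log2 ratio of -0.43 (-0.61 to -0.24), short of the fold. Lamp1 thus made up 80.2% of LAMP UMIs in the foam gate (78.6 to 81.7) and 64.0% in the resident gate of HFD. In ND the shares were 67.0% and 62.6%, but 39 of the 75 Lamp1 UMIs of the ND foam gate lay in 1 cell. Without that cell, a choice made after seeing the data, Lamp1 had 36 UMIs there and Lamp2 had 35. In ND neutrophils Lamp1 made up 21.2% of LAMP UMIs.

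**Figure D3:**
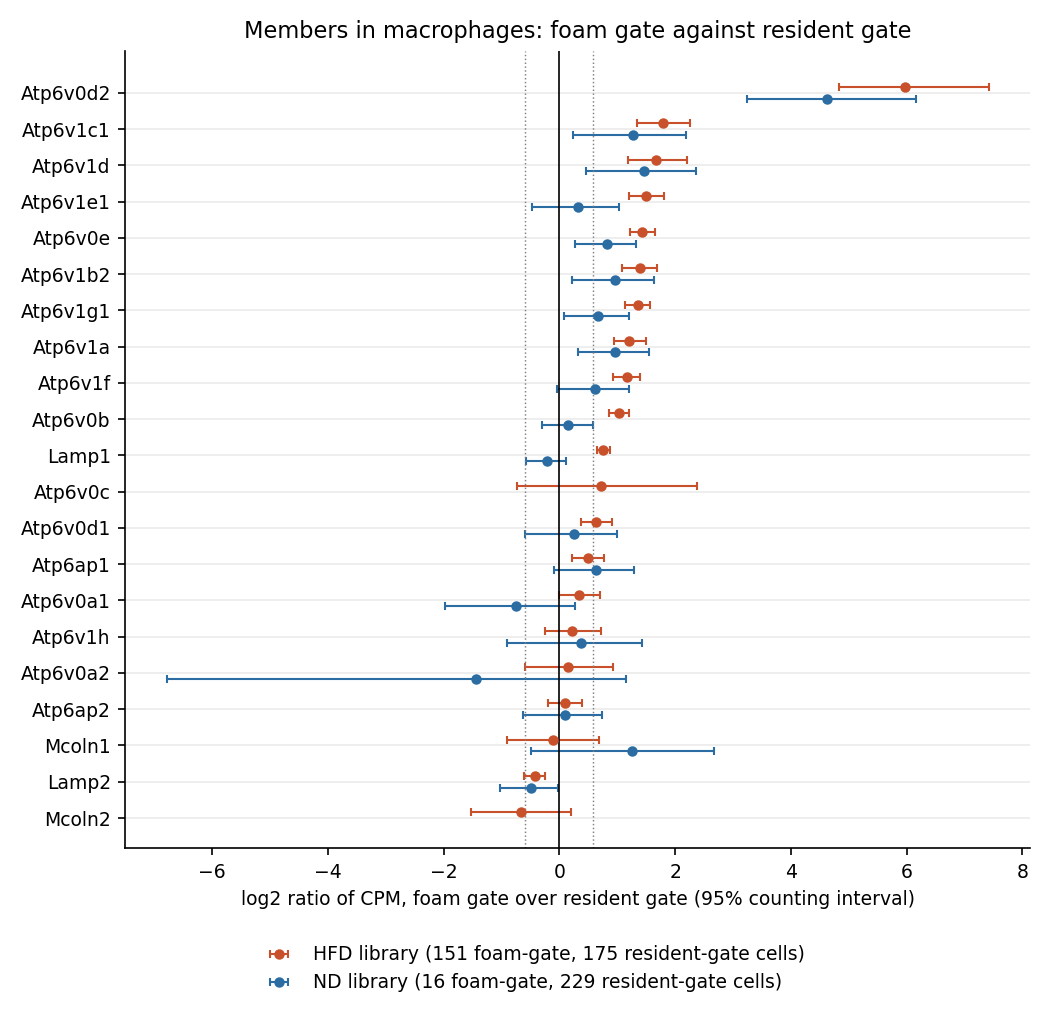
Log2 ratio of CPM of the foam gate over the resident gate for the members with at least 20 UMIs, in HFD (orange, 21 members) and in ND (blue, 19 members); bars are 95% counting intervals and dotted lines mark 1.5 times. Atp6v0d2 lies farthest to the right in both libraries, and Lamp2 lies left of 0 in both.

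In ND the same comparison rested on 16 foam-gate cells, and the summed values leaned on 1 of them. Of 19 members, 10 were higher in the foam gate by the fold and 2 lower, against 18.8% and 31.6% of 5305 genes, and the summed log2 ratio of the V-ATPase was 0.57 (0.39 to 0.73). The deepest cell held 21879 of 92014 UMIs, and it held 143 of the 327 V-ATPase UMIs, 14 of the 15 Atp6v0d2 UMIs, and all 60 Gpnmb and 38 Spp1 UMIs. Without it, a choice made after seeing the data, the V-ATPase level was 2624 CPM and the log2 ratio 0.13 (-0.10 to 0.34). Only 2 members were then higher, and the share of all genes was not counted. Lamp1 was then 513 CPM, below the 948 CPM of the resident gate. The other 15 cells had met the gate through Trem2 alone. With all 16 cells thinned to 1000 UMIs, the foam gate of ND held a mean of 3.375 V-ATPase UMIs each and the resident gate 2.415. On that scale 3 members were higher by the fold, with the share of all genes not counted.

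The d subunits and the LAMP genes were also read as shares, the UMIs of 1 gene among those of its family. These shares were then compared between classes. Atp6v0d2 made up 58.6% of the d subunit UMIs in the foam gate of HFD (exact binomial 95% interval 55.4 to 61.7) and 48.4% in that of ND (30.2 to 66.9). In macrophages of both gates the share was 37.7% in HFD and 40.3% in ND. In ND, 14 of the 15 Atp6v0d2 UMIs of the foam gate and 26 of the 27 of both gates lay in 1 cell each, and without these cells the shares were 14.3% (1 of 7 UMIs) and 3.45% (1 of 29 UMIs). In the resident gate it was 3.4% in HFD and 4.3% in ND. Endothelial cells showed 4.4% in HFD, where 16 of 18 Atp6v0d2 UMIs lay in 1 cell, and 1.1% in ND. Among the HFD classes of at least 20 cells, the foam gate held the highest share.

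**Figure D4:**
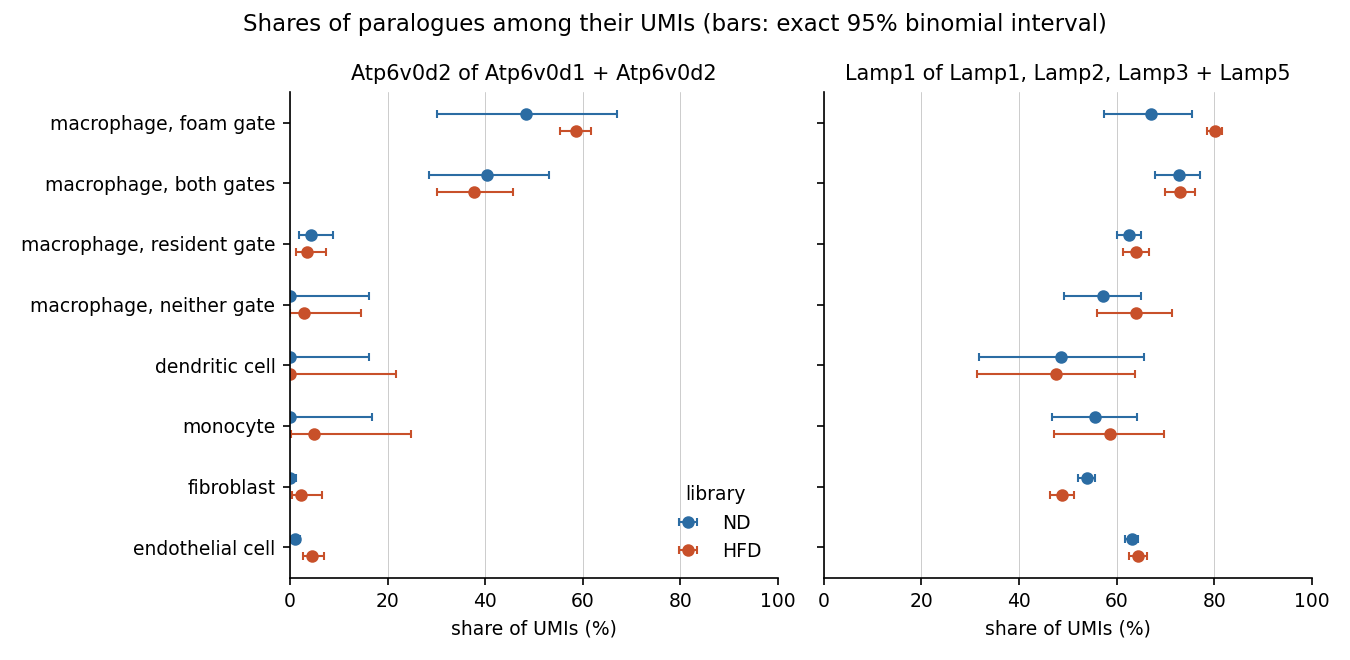
Share in percent of Atp6v0d2 among the UMIs of both d subunit genes (left) and of Lamp1 among the UMIs of Lamp1, Lamp2, Lamp3 and Lamp5 (right), by gated class and library (ND blue, HFD orange), with exact 95% binomial intervals. In HFD the foam gate holds 58.6% for Atp6v0d2 and the resident gate 3.4%, and for Lamp1 the values are 80.2% and 64.0%. The ND foam-gate points lean on 1 deep cell.

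Macrophages were also divided by which foam marker they held, a division chosen after the values above had been seen. In HFD, summed V-ATPase UMIs gave 2239 CPM in the 149 macrophages without any foam marker UMI, and 2512 CPM in 114 with Trem2 only. They gave 2996 CPM in 37 with Spp1 but no Gpnmb and 5257 CPM in 147 with Gpnmb. In ND the levels were 2306, 2473, 3457 and 7212 CPM in 215, 104, 9 and 2 cells. In HFD the interval of the set with Trem2 only (2393 to 2636) lay above that of the set without a marker (2136 to 2344). That of the Spp1 set (2766 to 3240) lay above both. In ND the intervals of the sets with no marker and with Trem2 only overlapped. The macrophages with Gpnmb, a glycoprotein of the lysosome and melanosome, lay highest in both libraries, with 2 such cells in ND. HFD cells thinned to 1000 UMIs were divided again by the UMIs left to them, into 267, 43, 28 and 109 cells. Their levels were 2472, 2535, 3607 and 5697 CPM, and the intervals of the first 2 of these sets overlapped.

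Single members followed this division in different ways. Atp6v0d2 had a UMI in 62.6% of HFD macrophages with Gpnmb and in 3.36%, 1.75% and 10.8% of the sets without a marker, with Trem2 only and with Spp1 but no Gpnmb. These shares were not matched for depth. In the thinned cells divided again, they were 37.6%, 0.375%, 0% and 7.14%. In HFD, Lamp1 was 747, 945, 916 and 1478 CPM over the sets in the order none, Trem2, Spp1 and Gpnmb. Lamp2 was 436, 441, 468 and 345 CPM in HFD, where the Gpnmb set lay lowest. In ND it was 516, 518, 281 and 337 CPM. The interval of the ND set with Spp1, of 9 cells, lay below that of the set with no marker, and the interval of the 2 cells with Gpnmb overlapped it. All 43 Mcoln3 UMIs of HFD macrophages lay in cells with Gpnmb.

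**Figure D5:**
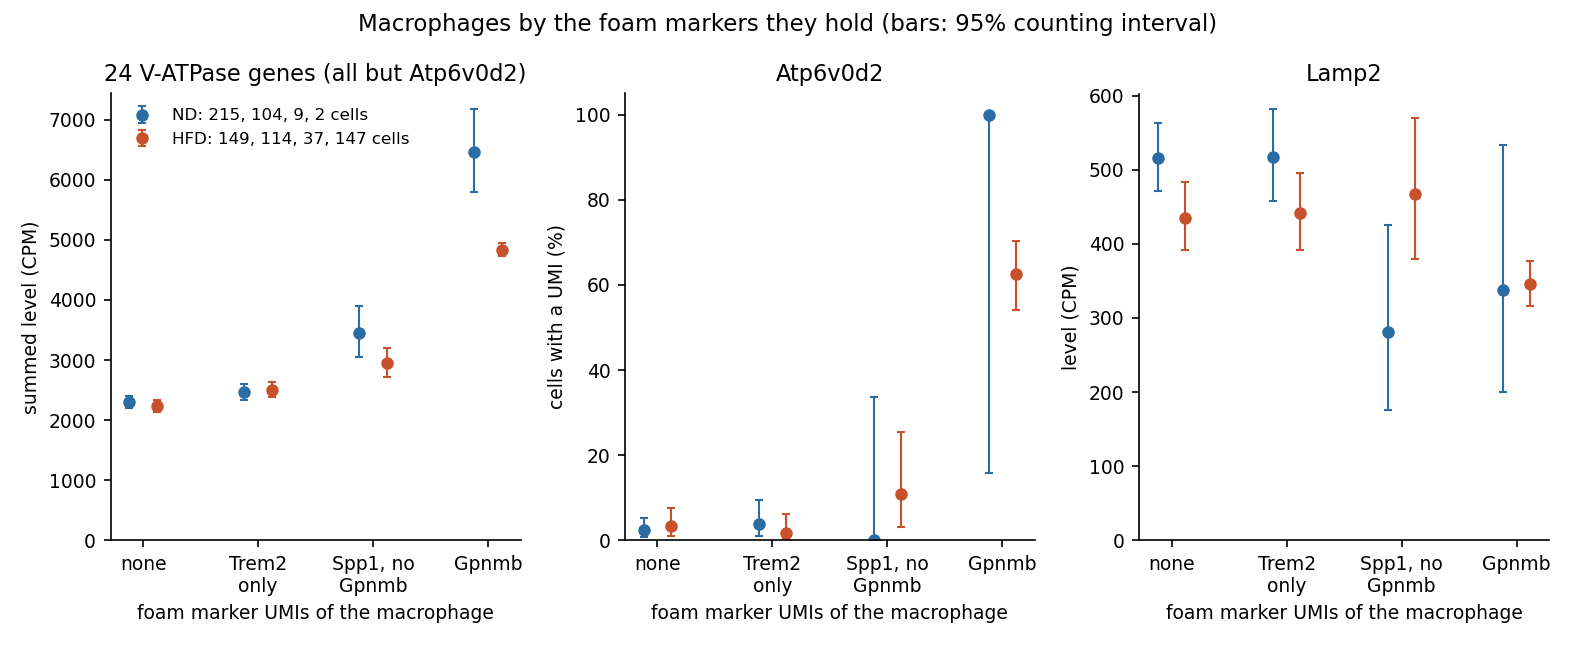
Macrophages grouped by the foam markers they hold (none, Trem2 only, Spp1 without Gpnmb, Gpnmb): summed CPM of the V-ATPase genes other than Atp6v0d2 (left), percent of cells with an Atp6v0d2 UMI (middle) and Lamp2 CPM (right), on linear axes from 0, in ND (blue) and HFD (orange) with 95% counting intervals. In HFD the V-ATPase level rises from 2232 to 2953 CPM over the first 3 sets and is 4835 CPM with Gpnmb. Lamp2 is lowest with Gpnmb in HFD, and the ND point with Gpnmb is 2 cells.

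The mucolipins are cation channels that release calcium from endosomes and lysosomes. Mcoln1, the broadly expressed one, was 18.6 CPM in ND and 25.8 CPM in HFD macrophages, a log2 ratio of 0.47 (-0.15 to 1.13), and 24.3 and 26.3 CPM in the foam and resident gates of HFD. Mcoln3 had 2 UMIs in ND macrophages, both in 1 cell, and 43 in 20 HFD macrophages. Its log2 ratio was 3.47 (1.52 to 6.56). Within HFD it had 32 UMIs in the foam gate and none in the resident gate, at least 7.03-fold higher with 3 UMIs in place of 0. No UMI of Mcoln3 was found in 2273 ND or 1069 HFD endothelial cells.

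Mcoln2 differed between the diets but not in the manner of the foam genes. It was 8.67 CPM in ND macrophages and 22.3 CPM in HFD macrophages, a log2 ratio of 1.36 (0.52 to 2.30). It was the only member past the fold within the resident gate, with 10 UMIs in ND and 25 in HFD, a log2 ratio of 1.47 (0.36 to 2.69). In HFD it was lower in the foam gate than in the resident gate, at 16.6 against 26.3 CPM, with an interval that held 0. Fibroblasts showed it too, with 13 UMIs in 13 of 943 ND cells and 37 UMIs in 23 of 399 HFD cells, a log2 ratio of 2.56 (1.61 to 3.59). Endothelial cells held 2 UMIs in each library. B cells of ND, where the gene is known to be expressed, held 36 UMIs in 33 of 518 cells. Mcoln3 and Mcoln2 lie on the plus strand of chromosome 3 at chr3:146117450-146141806 and chr3:146149833-146195513 (GRCm38).

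Outside the macrophages the diets differed in few members. In endothelial cells, 1 of 22 members was higher in HFD by the fold and 1 lower, against 6.41% and 17.7% of 12192 genes, and the summed V-ATPase level was 1317 CPM in ND and 1264 CPM in HFD. The higher one was Atp6v0d2, with 8 UMIs in ND and 18 in HFD, of which 16 lay in 1 cell. When the deepest 6% of cells were left out, its log2 ratio was -0.41 instead of 1.95. The lower one was Atp6v0e2, a second gene for the e subunit, with 56 UMIs in ND and 12 in HFD, a log2 ratio of -1.44 (-2.48 to -0.53). In fibroblasts, 1 of 20 members, Mcoln2, was higher and none lower, against 5.89% and 19.2% of 10681 genes. Their summed V-ATPase level was 1442 CPM in ND and 1264 CPM in HFD, a log2 ratio of -0.19 where the median over all genes was -0.17.

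The remaining members had few UMIs in macrophages. Atp6v1g2 had 3 in ND and 15 in HFD, and Atp6v0e2 had 0 and 2. No macrophage UMI was found for Atp6v1g3, Atp6v1b1, Atp6v1c2, Atp6v1e2, Atp6v0a4, Atp6ap1l, Lamp3 or Lamp5. Atp6v1b1 and Atp6v1c2, which are known from proton-secreting epithelia, had 47 and 90 UMIs over all kept ND cells, of which 39 and 57 lay in the 48 club cells, an airway cell type that was absent from the kept HFD cells. Over all kept cells of ND and HFD, Atp6v1g3 had no UMI, Atp6ap1l had 2 and 0, and Atp6v1e2 and Lamp3 had 1 in each. Lamp5 had 14 and 4 and Atp6v0a4 16 and 12. Glial cells of ND stood out for Atp6v0e2, which made up 39.1% of the e subunit UMIs there and 3.2% in ND endothelial cells.

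Genes of the same organelle outside the rule were counted from 4 lists. Between the gates of HFD, 17 of 31 lumen enzymes and cofactors were higher in the foam gate and 2 lower, with a median log2 ratio of 0.65, against 20.5% and 23.4% of all genes and a median of -0.04. Acp5, the tartrate-resistant acid phosphatase, was 538 against 7.36 CPM, and Galns and Lipa had log2 ratios of 2.92 and 2.72. Lipa encodes the acid lipase that splits cholesteryl esters. Of 20 other lysosome membrane genes, 7 were higher and 2 lower, with a median of 0.28. Cd63, a tetraspanin, was 1906 against 371 CPM, and Cd68, Npc1 and Slc11a1 had log2 ratios of 1.62, 1.58 and 1.09.

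Of 12 genes of the Ragulator, the Rag proteins and the MiT/TFE factors, which link the lysosome to nutrient sensing, 6 were higher and 2 lower. The shares were 50% and 16.7%, against 20.5% and 23.4% of all genes. Lamtor4, Lamtor5 and Lamtor3 had log2 ratios of 0.86, 0.85 and 0.67, whereas the factor Tfe3 was 38.1 CPM in the foam gate and 74.6 CPM in the resident gate, a log2 ratio of -0.97 (-1.50 to -0.44). Of 7 assembly factors and other subunits of the pump, 2 were higher and 1 lower, shares of 28.6% and 14.3% that lie near those of all genes. Tcirg1, the a subunit of osteoclasts, was 306 against 94.6 CPM, a log2 ratio of 1.69 (1.36 to 2.04), while Vma21 and Dmxl1, which serve assembly, had log2 ratios of 0.03 and 0.01. Tcirg1 made up 64.0% of the a subunit UMIs in the foam gate of HFD and 40.5% in the resident gate, beside 0.34 on the log2 scale for Atp6v0a1.

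Between the diets, over all macrophages, the same lists gave 11 higher and 3 lower of 31 lumen enzymes and cofactors, and 5 higher and none lower of 22 other membrane genes, where 11.9% of all genes were higher and 19% lower. In the Ragulator list, 1 of 13 was higher and 1 lower, and among the assembly factors 1 of 8 and 1 of 8. Acp5 was 68.1 CPM in ND and 283 CPM in HFD, and Cd63 was 465 and 1162 CPM. Arsb, an arylsulfatase, ran the other way, with 53.8 CPM in ND and 15.3 CPM in HFD. In the resident gate, 1 of 29 lumen enzymes was higher in HFD and 5 were lower, beside 7.31% and 17.6% of all genes.

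Since many members were higher together in the foam gate, their promoters were searched for the CACGTG core and its longer forms TCACGTG and TCACGTGA, on both strands, the longer forms holding the shorter. RefSeq promoter windows on GRCm38.p6, from 250 bases before to 50 after each start site, were at hand for 25 of the 32 members, with 29 windows in all. CACGTG was found in 7 of the 29 windows (24.1%), against 7.15% of all 32851 windows. TCACGTG was found in 6 (20.7%, against 3.77%) and TCACGTGA in 4 (13.8%, against 0.974%). The core lay in windows of Atp6v0b, Atp6v0d1, Atp6v0e, Atp6v1a, Lamp1, Mcoln1 and Mcoln2. A match is a description of these letters and not a bound site. The stretches below are shown because they hold the core before the RefSeq start site in genes with values above. Those of Atp6v1a and Mcoln2 lie inside the annotated gene. Capitals mark CACGTG, and each is written 5′ to 3′ on the strand of its gene.
Lamp1, chr8:13159085-13159160, plus strand: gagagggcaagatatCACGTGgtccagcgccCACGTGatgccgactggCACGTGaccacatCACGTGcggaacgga
Atp6v0b, chr4:117887334-117887380, minus strand: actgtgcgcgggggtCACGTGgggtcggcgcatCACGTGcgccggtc
Mcoln1, chr8:3500433-3500456, plus strand: aagggtcgcgcttgtCACGTGttc
Atp6v1a, chr16:44139373-44139402, minus strand: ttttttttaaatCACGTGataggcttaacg
Mcoln2, chr3:146150090-146150119, plus strand: tccctgagctcaCACGTGgaccccattctg

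In Lamp1, 4 cores lay within 61 bases before the start site, beginning 61, 45, 28 and 15 bases from it. In Atp6v0b they began 36 and 18 bases before it, in Mcoln1 71 and 45, in Atp6v1a 131 and in Mcoln2 72. The Mcoln2 core was the only one of these with neither a T directly before it nor an A directly after it. Of the genes with the core, Atp6v0b, Atp6v0d1, Atp6v0e, Atp6v1a and Lamp1 were higher in the foam gate of HFD by the fold. Mcoln1 and Mcoln2 were not. Among genes with windows but no core, Atp6v0c, Atp6v1d, Atp6v1e1 and Atp6v1f were past the fold, and Atp6v0a1, Atp6ap1, Atp6ap2 and Lamp2 were not. Atp6v0c, whose counts are uncertain, turned to -0.17 with a gate of 3 UMIs. Mcoln3, which also had a window without the core, had 32 UMIs in the foam gate and none in the resident gate. Atp6v1c1, Atp6v1b2, Atp6v1g1 and Atp6v0d2 had no window in the table.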

How the data were processed

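The authors deposited 10x Genomics matrices of raw UMI counts per gene and barcode, made with Cell Ranger (matrix header software version 3.0.1), 1 for each library. The submitters' notes also name mm10, bcl2fastq, UMI-tools, Seurat 3.2.0 and R 4.0.0. Of 10234 ND and 14225 HFD barcodes, those with 200 or more genes, 200 or more UMIs and no more than 30% mitochondrial UMIs were kept, as the authors' methods describe. The deposited table joining both libraries was not used.

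Marker lists were written before the minimum number of markers per gate, which was set after the marker counts had been seen. Cells that met more than 1 gate (503 ND, 521 HFD) were left out, and neither a doublet caller nor clustering was run. Only 1 barcode was shared by kept cells of both libraries, and none by macrophages.

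UMIs were summed over the cells of a class and divided by its total (CPM), without regard to transcript length. Exact 95% intervals are Poisson for sums, Clopper-Pearson for shares and conditional binomial for log2 ratios. A ratio needed 20 UMIs over both sides and at least 1 on each. No test was made, since cells are not replicates. Members and gene lists were chosen with earlier results of these data known. Full values are given for members with at least 200 UMIs over macrophages or past 1.5 times with an interval that excludes 0; at most 4 genes with at least 100 UMIs and the largest ratios are named from each of the 4 context lists. Some items that this rule would name are not reported here.

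Positions are from GENCODE M21 (GRCm38), which matched 32 of 32 identifiers. The strand setting of the counting was not stated; Atp6v0a4, Atp6v1e1 and Atp6v0a1 overlap another gene on their own strand. Printed promoter stretches stop at the annotated gene or are limited to 30 bases around the core. Figures were drawn with matplotlib 3.10.9, and the sums and intervals came from pandas 2.3.3, scipy 1.17.1 and numpy 2.4.6 under Python 3.11.15. The ratio step was tested on simulated data. These were Poisson draws of class sums, so they could not show how the intervals hold under variation between cells or libraries. The alternatives changed the mitochondrial limit, gates, depth, scaling, cell weights, floor and fold.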

Additional observations from a re-analysis of the deposited data

Results flagged for a closer look

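Cells that met both the macrophage and the endothelial gate had been left out of every comparison above. In these cells the summed V-ATPase log2 ratio of HFD to ND was 0.55 (0.43 to 0.66) and the LAMP and mucolipin ratio 0.39 (0.22 to 0.57), on a scale without mitochondrial UMIs. Macrophages with over 30% mitochondrial UMIs, which the filter removed, gave a LAMP and mucolipin log2 ratio of 0.37 (0.10 to 0.66), while that of the V-ATPase was 0.16 (-0.02 to 0.34). The removed macrophages numbered 69 in ND and 353 in HFD, beside 330 and 447 kept, so the filter acted unequally on the libraries. On the same scale the kept macrophages gave 0.21 (0.14 to 0.28) for LAMP and mucolipins and 0.58 (0.53 to 0.63) for the V-ATPase.

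Some members lay on opposite sides of 0 in different cells, with intervals that excluded 0 on each side and at least 1 of them past the fold. HFD was above ND in macrophages and below it in fibroblasts for Atp6v1g1 (log2 ratios 0.72 and -0.36), Atp6v1f (0.73 and -0.37) and Atp6v0e (0.73 and -0.21). The median log2 ratio of all genes was -0.10 in macrophages and -0.17 in fibroblasts, so the fibroblast value of Atp6v0e lay near that median. Atp6v1e1 was -0.41 in the resident gate and 0.77 in the foam gate, and Lamp1 -0.17 and 0.81, where the ND foam gate held 16 cells. Of these cells, 15 had met the gate through Trem2 alone. Gpnmb was 652 CPM in the foam gate of ND and 3893 CPM in that of HFD, so the foam gates held unlike cells. None of these differences was tested, since each diet had 1 library.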

How the results depend on the processing

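No paired analysis was possible because each diet had 1 library, and for the same reason no library could be left out. For the values without a test, an alternative was counted as different when it left the counting interval, or when a count of members moved by over 1.5 times. Alternatives were counted for the summed V-ATPase ratios, the counts of members and the number of classes below the foam gate. The V-ATPase ratio of macrophages rich in foam markers to those with none was counted too. Of these alternatives, 102 stayed within the bounds and 43 did not. The 102 include changes of the floor and fold, which cannot alter a summed ratio and so had to stay. The endothelial V-ATPase sum, near 0, was the only one of the summed V-ATPase ratios to cross it. Thinning to 1000 UMIs and leaving out deep ND cells were chosen after seeing the data. The share of all genes past the fold was not counted for any alternative.

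In macrophages, the V-ATPase log2 ratio of HFD to ND was 0.73 with a mitochondrial limit of 20%, 0.38 without the deepest 6% of cells, 0.68 with median-of-ratios scaling, 0.44 with each cell weighted equally and 0.63 without the 2 ND cells rich in Atp6v0d2; 16 members were higher at a lower fold limit. Between the gates of HFD, that ratio was 0.92 without the deepest cells, 1.06 when scaled without mitochondrial, haemoglobin and ribosomal UMIs, 1.27 by median of ratios, 1.04 with equal weights and 0.94 in thinned cells, and Atp6v0c turned to -0.17 with a gate of 3 UMIs. Between the gates of ND, it was 1.18 with a gate of 3 UMIs, 0.14 without the deepest cells, 0.28 with equal weights and 0.13 without the deepest cell. The number of members higher there was 2 without the deepest cells, 4 with equal weights, 6 with a floor of 100 UMIs, 3 in thinned cells and 2 without the deepest cell. Thinning turned Atp6v0a2 to 1.03, Atp6v1f to -0.13, Atp6v1b2 to -1.16 and Atp6v0e to -0.68, and leaving out the deepest cell turned Atp6v1b2 to -0.033. The summed LAMP and mucolipin ratio of that comparison ranged from -0.53 to 0.35.

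Macrophages against endothelial cells gave V-ATPase log2 ratios of 0.89 without the deepest cells, 1.03 with the reduced scaling and 1.10 by median of ratios in ND. In HFD they were 1.74 with the 20% limit, 1.33 without the deepest cells, 1.70 by median of ratios and 1.39 with equal weights. In endothelial cells, HFD over ND was -0.0047 with the 20% limit, 0.036 with the reduced scaling, 0.064 by median of ratios and -0.0093 with equal weights. There 0 members were higher without the deepest cells, where Atp6v0d2 turned to -0.41, 0 with a floor of 100 UMIs and 2 without a floor. In fibroblasts, the ratio was -0.011 with the reduced scaling and -0.051 by median of ratios. The members higher there were 2 with the 20% limit, with either scaling and with equal weights, 0 with a floor of 100 UMIs, 3 without a floor and 4 at a lower fold limit. The causes of these shifts were not tested. The small classes, the 16 ND foam-gate cells above all, limit what these counts can show.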
